A study of Populus ussuriensis with 20 samples.

Results

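The comparison described here is the step from 24 h to 48 h after cutting in wild-type stem cuttings of Populus ussuriensis, a poplar. It rests on 4 of the 20 libraries of the series, picked out by genotype and time in their labels and not by measured values: 2 labelled WT at 24 h and 2 labelled WT at 48 h. All of them hold RNA from the basal 0.5 cm of cuttings cultured in vitro on a Murashige and Skoog medium with sucrose, with 16 h of light and 8 h of dark. Each library pooled 40 cuttings. The plants carried no transgene, and their age is given as 2 weeks in the series text and as 4 weeks in the growth protocol. A second genotype, called PuHox52-OE in the labels and OE here, carried PuHox52 behind the 35S promoter, and its 4 libraries at 24 and 48 h served as a second look at the step. Both genotypes were also sampled at 6, 12 and 96 h, with 2 libraries a group. The number of transgenic lines is not stated, and no ID is tied to PuHox52, so its level could not be checked. The 2 times of the step are a whole day apart, so they fall nominally at the same hour of the light cycle, although the labels do not give the hour of cutting.

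Adventitious roots are roots that arise from stems or leaves rather than from another root. In cuttings, a wound response at the cut surface is followed by the build-up of auxin at the base, by renewed division of cells near the vascular tissue, and by the patterning of root primordia that later grow out. The study's title places the series in that process, and the step from 24 to 48 h lies inside its time course. The samples were whole stem bases, a mixture of epidermis, cortex, phloem, cambium, xylem and pith. A lower level in such bulk RNA can mean fewer cells of a type or less RNA per cell, and these cannot be told apart. The files used here pair none of their 39538 gene IDs with a gene name or product. The tissue could therefore not be checked against marker genes, pathways could not be counted, and at most 2 IDs per direction are named for a comparison.

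Between 12276373 and 17332726 counts were deposited for each of the 4 libraries, and 28468 to 29072 gene models had at least 1. Replicates lay closer to each other than to the other time. The root mean square difference in log2 CPM (the usual CPM unit, counts relative to library size, here with TMM scaling) was 0.456 between the 24 h libraries and 0.403 between the 48 h libraries. Across the times it was 0.556 to 0.621. Replicates differed by more than sampling noise, with a chi-square per degree of freedom of 6.08 at 24 h and 4.48 at 48 h, so no library was a copy of another. The labels speak of 2 biological replicates but do not say whether they came from separate batches of plants.

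Among the 4 steps between neighbouring times in WT, this one gave the fewest calls. Among 26391 genes tested with edgeR (quasi-likelihood, Benjamini-Hochberg adjustment over all of them), 1473 changed (5.58%) at an adjusted p under 0.05, here said to be called. Of these, 726 rose (2.75% of the genes tested) and 747 fell (2.83%). The step from 6 to 12 h gave 9492 calls (36.0%). That from 12 to 24 h gave 3660 (13.9%), 6.52% higher and 7.35% lower, and that from 48 to 96 h gave 4211 (16.0%), 6.92% higher and 9.04% lower. Both of these share libraries with the step described. The 4 steps are of unlike length, and those from 6 to 12 h and from 12 to 24 h also change the hour of day, so their order is not one of rates. The WT 12 h libraries were the deepest in WT, with 23770233 and 27472303 counts. With every library thinned to the smallest total, the steps gave 8540, 3055, 1516 and 3685 calls in order of time. The order of the steps from 12 to 24 h and from 24 to 48 h was turned round when each step's 4 libraries were fitted alone (1899 against 2883 calls), with glmTreat (11 against 20), and when WT 12 h replicate 1 was dropped (561 for the step from 12 to 24 h). Every called gene had both libraries of one time above both of the other, but so had 56.4% of all genes tested.

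Among the called genes, those that rose changed by more than those that fell. Risen and fallen genes differed in level, and power to call a small change differs with the level. Its part in these sizes was not tested. The median log2 fold change was 0.99 for the risen genes and -0.70 for the fallen ones. At least 2-fold changes were made by 359 risen and 209 fallen genes, and at least 4-fold changes by 99 and 43. When the change was tested against a log2 fold change of 1 (edgeR's glmTreat), 19 genes remained called higher and 1 lower. The balance of 726 to 747 moved with the setting. It was 774 to 1268 with DESeq2 and 818 to 1252 without a filter on low counts. With median-of-ratios size factors it was 652 to 909, with thinned libraries 626 to 890, and with the 4 libraries fitted alone 1210 to 1673. These settings leaned to falls, while glmTreat and some fits without 1 library leaned to rises. No side was favoured under every setting. The number of calls rested on both replicates of each time. Leaving out replicate 1 or replicate 2 of WT 24 h brought it to 244 or 710, and leaving out replicate 1 or replicate 2 of WT 48 h to 439 or 250. It was 2883 when the 4 libraries were fitted alone.

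**Figure D1:**
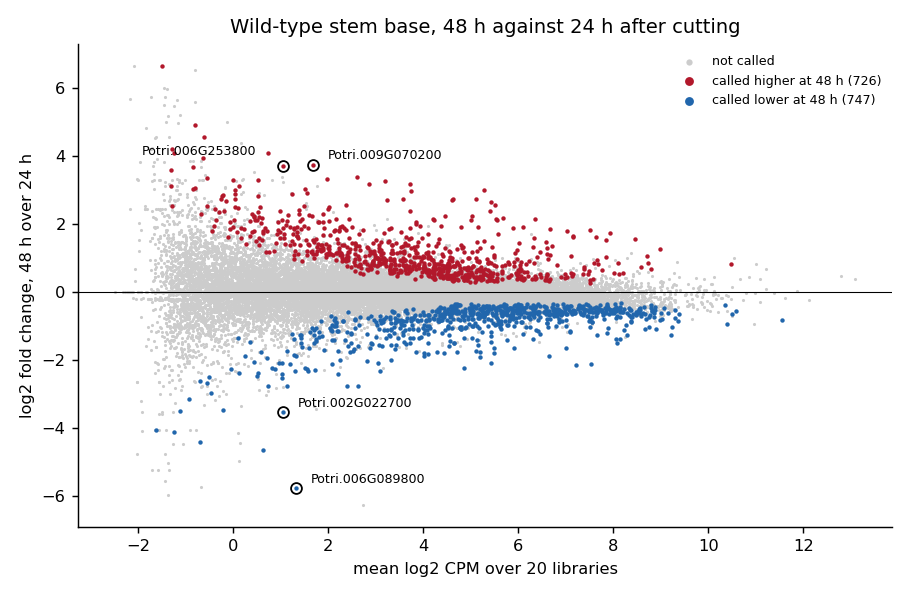
Each point is a tested gene, with its mean log2 CPM over all 20 libraries on the x axis and its log2 fold change from 24 to 48 h in WT on the y axis. Red points are the 726 genes called higher at 48 h and blue points the 747 called lower; the 4 circled genes are those named in the text, and the blue points lie further to the right than the red ones.

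The genes that fell were the more abundant ones. Their median mean level was 5.37 on the log2 CPM scale, against 3.795 for the risen genes and 3.81 for all genes tested. In the highest quartile of genes by mean level over all libraries, 397 fell (6.02%) and 155 rose (2.35%), while in the lowest quartile 59 fell (0.894%) and 138 rose (2.09%). Of the 100 genes with the highest mean FPKM in the authors' deposited values, which are scaled by length, 13 fell and 2 rose, against 2.83% and 2.75% of all genes tested. Power to call a small change also differs with the level, and its part in these shares was not tested.

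As a share of all counts of tested genes, the risen genes took 1.79% and 1.93% in the 24 h libraries and 3.49% and 3.54% in the 48 h libraries. The fallen genes went from 8.19% and 7.72% to 5.17% and 5.09%. These genes were chosen by the same libraries, so the sums describe the step and do not test it. The OE libraries took no part in the choice. In them the genes that rose in WT held 2.27% and 2.64% at 24 h and 3.12% and 3.28% at 48 h, and those that fell in WT held 7.94% and 7.01% at 24 h and 5.73% and 5.26% at 48 h. For both sets the OE libraries of the 2 times did not overlap. The change was in the same direction as in WT and, for both sets, smaller. Genes chosen for their change in WT tend to change less in other libraries, so the smaller size does not show a difference between genotypes.

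**Figure D2:**
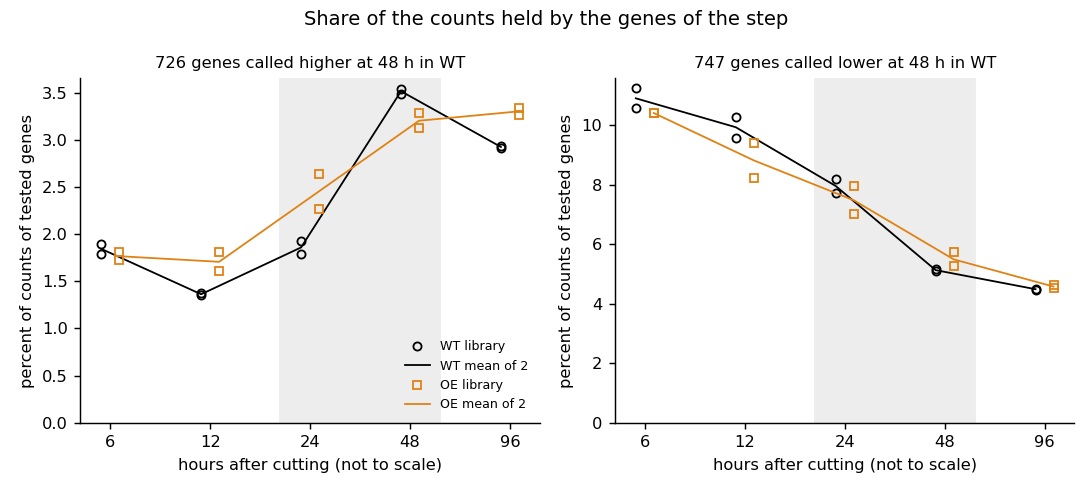
Percent of the counts of all tested genes held by the 726 risen genes (left) and the 747 fallen genes (right) in every library, against hours after cutting on an axis that is not to scale. Circles are WT libraries and squares OE libraries, lines join the means of 2, and the grey band marks 24 and 48 h; in WT the left share moves from 1.79 and 1.93% to 3.49 and 3.54% within the band.

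Gene length moved with the step, as it did over the whole course in WT. In the shortest quartile of tested genes (up to 1302 bases) the median log2 fold change was -0.07, with 142 genes risen and 279 fallen. In the longest quartile (above 2537 bases) it was 0.09, with 219 risen and 67 fallen. Library by library, the level of long genes relative to short ones, each gene taken against its own mean over all libraries, stood at -0.0369 and -0.0167 in the 24 h libraries and at 0.118 and 0.0874 in the 48 h libraries (log2). OE showed -0.0524 and 0.0343 at 24 h and 0.0928 and 0.164 at 48 h on the same measure. With the length trend of each library taken out, 642 genes were called higher and 807 lower, and 1297 of these 1449 calls were also made without it.

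The largest increase of a called gene whose mean log2 CPM reached 1 was that of Potri.009G070200.v3.0 (chromosome 9, 6923411 to 6924339, plus strand, 662 bases long). It stood at 1.15 and 0.867 CPM in the 24 h libraries and at 17.4 and 9.67 CPM in the 48 h libraries. The lower 48 h library was above both 24 h libraries, but such an order was a condition for choosing the gene and is no further result. The change was 13.4-fold (log2 fold change 3.74, SE 0.433, adjusted p 0.000211 by edgeR's quasi-likelihood test), and it stayed called under each of the 11 alternatives run. Its levels in WT were 0.381 ± 0.124 CPM at 6 h, 0.350 ± 0.236 at 12 h and 2.27 ± 0.164 at 96 h (SD, n = 2 each), with the highest mean of the 5 times at 48 h.

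Potri.006G253800.v3.0 (chromosome 6, 25882653 to 25884432, minus strand, 1500 bases) rose 13.1-fold (log2 fold change 3.71, SE 0.577, adjusted p 0.00199 by the same edgeR test). Its 24 h libraries stood at 0.493 and 0.200 CPM, from 9 counts in all, and its 48 h libraries at 3.52 and 5.34 CPM. That the groups did not overlap was again a condition of the choice. Its course was not a single rise, since it had been at 2.85 ± 0.718 CPM at 6 h and at 0.454 ± 0.331 at 12 h, and returned to 1.05 ± 0.117 at 96 h (SD, n = 2 each). The libraries of 6 h (2.35 and 3.36 CPM) lay just under those of 48 h. The gene's call was lost when the change was tested against a log2 fold change of 1 (adjusted p 0.0555 by glmTreat).

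Of the 2 largest decreases chosen by the same rule, Potri.002G022700.v3.0 (chromosome 2, 1368371 to 1369242, plus strand, 618 bases) fell 11.6-fold (log2 fold change -3.53, SE 0.671, adjusted p 0.00738 by the same edgeR test). It stood at 2.05 and 1.73 CPM at 24 h and at 0.0717 and 0.225 CPM at 48 h, where it had 5 counts in all. Its level had dropped before, from 6.53 ± 0.721 CPM at 6 h to 1.55 ± 0.0638 at 12 h, and it stayed low at 0.331 ± 0.0125 at 96 h (SD, n = 2 each). Its call was lost when WT 24 h replicate 1 was left out (adjusted p 0.056 by edgeR), and likewise for replicate 1 or 2 of WT 48 h (0.064 and 0.0529).

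The other, Potri.006G089800.v3.0 (chromosome 6, 6882463 to 6884802, plus strand, 1060 bases) was counted 54 times in the 24 h libraries together and 1 time in those of 48 h, a ratio of 63.1 with a 95% exact counting interval of 10.85 to 2537, which covers counting error only. Its adjusted p was 0.0424 by edgeR's quasi-likelihood test. The 24 h libraries differed widely, at 3.86 and 0.467 CPM, and the call was lost when WT 24 h replicate 1 (adjusted p 0.448 by edgeR) or either library of WT 48 h (0.18 and 0.195) was left out. At 96 h the gene was back at 5.40 ± 0.193 CPM (SD, n = 2). Per length, in the authors' deposited FPKM, the 4 genes had mean values of 3.23, 0.289, 4.63 and 2.33 at 24 h, in the order in which they are described above, and of 42.4, 3.89, 0.357 and 0.0305 at 48 h.

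**Figure D3:**
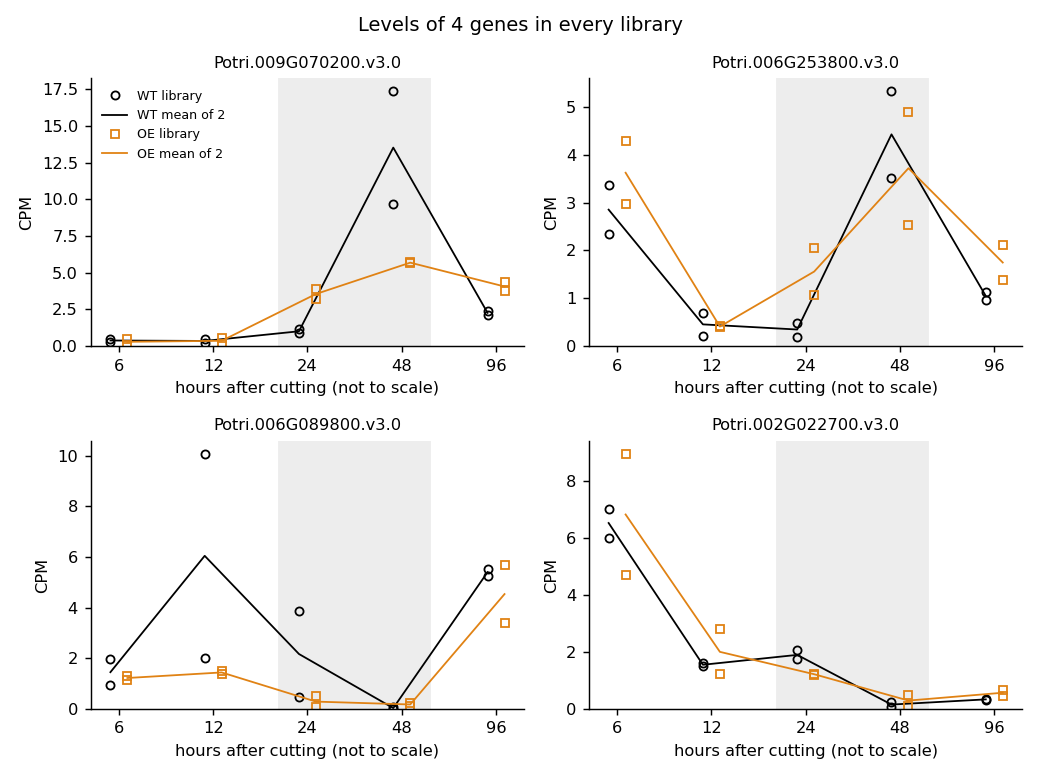
CPM of the 4 named genes in every library against hours after cutting (axis not to scale). Circles are WT libraries, squares OE libraries, lines join the means of 2 and the grey band marks 24 and 48 h. In the upper panels both WT libraries at 48 h lie above both at 24 h, while in the other pair of panels the order is reversed. The genes were chosen for groups that do not overlap at these times.

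Few genes were switched on or off outright. Of 10022 gene models with 0 counts in both 24 h libraries, 287 had a count in both 48 h libraries. Only 8 had at least 5 counts in each. Among all 10022, 1 was called. Of 9659 models with 0 counts at 48 h, 137 had a count in both 24 h libraries and 2 had at least 5 in each. Among all 9659, 0 were called by edgeR's test. Both groups hold the 6602 models with 0 counts in every library, which were not tested. How many of the others passed the filter was not counted. The few calls can therefore not be set against the 5.58% of all genes tested. A count of 0 says that the model was not detected at this depth. Of the 228 tested models that the authors named newGene, 4 rose and 2 fell, with 2.75% and 2.83% over all genes tested.

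The WT times that took no part in the step show where it sits in the course. At 96 h against 12 h, a comparison that shares no library with the step and called 12592 genes (47.7%), 6236 genes were higher (23.6%) and 6356 lower (24.1%) by the same edgeR fit. Of the 726 genes that rose from 24 to 48 h, 504 (69.4%) were called higher at 96 h than at 12 h and 26 (3.58%) lower. Of the 747 that fell, 615 (82.3%) were called lower and 19 (2.54%) higher. The 2 comparisons share the estimate of each gene's spread, so a steady gene is easier to call in both. The hour of day also differs between 12 h and 96 h, and so does the level of long genes relative to short ones.

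Within WT, the highest mean level of the risen genes was at 48 h for 412, at 96 h for 206, at 6 h for 107 and at 12 h for 1. The choice of these genes bars a highest level at 24 h in WT and favours 48 h, so these counts are a description. In OE, which took no part in the choice, it was at 48 h for 297, at 96 h for 290, at 6 h for 102, at 24 h for 31 and at 12 h for 6. Between 6 and 12 h in WT, again without a shared library, 265 of the 726 (36.5%) were called lower, against 18.4% of all genes tested, and 108 (14.9%) higher, against 17.6%. Of the 747 fallen genes, 233 (31.2%) were called lower over the same hours and 197 (26.4%) higher, against the same 18.4% and 17.6%. The shares called lower depended on single libraries. With any library of WT 24 h or WT 48 h left out, the share went up for the risen genes and down for the fallen ones. Without WT 24 h replicate 1 that of the fallen genes lay below the 18.4% of all genes tested, so it does not show an excess of earlier falls. For the fallen genes the highest level in WT was at 6 h for 381, at 12 h for 195, at 24 h for 128 and at 96 h for 43, and the lowest was at 96 h for 413, at 48 h for 241 and at 6 h for 93. Here the choice bars a lowest level at 24 h in WT and favours 48 h. In OE the lowest was at 96 h for 471, at 48 h for 154, at 6 h for 100, at 24 h for 17 and at 12 h for 5.

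In OE, the same step gave 1745 calls (6.61%), 641 higher (2.43%) and 1104 lower (4.18%). Of the 726 genes that rose in WT, 168 were also called higher in OE (23.1% of the WT genes and 26.2% of the OE genes) and 0 lower. Of the 747 that fell, 296 were also called lower (39.6% and 26.8%) and 4 higher. By direction alone, 650 of the 726 (89.5%) and 662 of the 747 (88.6%) moved in OE as in WT, while 69.4% of all genes tested did. The median log2 fold change in OE was 0.38 for the genes risen in WT and -0.45 for the fallen ones, lower in size than the 0.99 and -0.70 by which they had been chosen. Genes chosen in OE showed the same drop, from 0.83 to 0.44 in WT for the higher ones and from -0.63 to -0.42 for the lower ones.

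The overlap in calls depended on single OE libraries, and so did the number of OE calls. Fewer OE calls allow only a smaller share, so the shares below do not measure agreement between the genotypes. With the OE libraries alone, 159 genes were called higher and 87 lower, against 641 and 1104 in the main fit. The matching share over all genes tested was not computed for each setting. The share of risen genes also called in OE fell to 4.68% when OE 24 h replicate 1 was dropped, to 11.6% or 8.13% when replicate 1 or 2 of OE 48 h was, and to 7.19% when each genotype's 4 libraries were fitted alone. The share of fallen genes was 1.87% when OE 24 h replicate 1 was dropped, 6.96% for OE 48 h replicate 2, 23.9% for WT 24 h replicate 1 and 3.89% with separate fits. The OE calls themselves, 1745 in all, numbered 85 when OE 24 h replicate 1 was dropped, 1147 or 269 when replicate 1 or 2 of OE 48 h was, and 246 with the OE libraries alone. The shares by direction moved less, to between 85.8% and 95.6% for risen and 81.8% and 91.3% for fallen genes when any 1 of the 8 libraries was left out. Across the 26391 genes, which are not independent replicates, Pearson's r between the log2 fold changes of WT and OE was 0.364, and 0.638 in the 13196 genes above the median mean level.

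Whether the step itself differed between genotypes was tested directly, as the OE change minus the WT change. By edgeR's quasi-likelihood test 40 genes were called (0.152%), 24 with the OE change above the WT change (0.0909%) and 16 with it below (0.0606%). Of the 16, 14 had risen in WT. Their median level was 2.21 in WT and 4.02 in OE at 24 h and 4.65 and 4.41 at 48 h (log2 of CPM plus 0.5), so that the genotypes stood further apart at 24 h than at 48 h. Of the 24, 19 rose in OE, 8 fell in WT and 3 rose in WT. Their medians were 3.66 in WT and 2.11 in OE at 24 h and 4.08 and 4.53 at 48 h. These medians and counts describe genes chosen on the same libraries. The choice itself favours genes risen in WT among the 16, and genes risen in OE or fallen in WT among the 24. Over all genes tested, 2.75% rose and 2.83% fell in WT, and 2.43% rose in OE. Leaving out any 1 of the 8 libraries left few calls. In WT, dropping replicate 1 or 2 gave 6 or 9 at 24 h and 7 or 13 at 48 h, and in OE it gave 11 or 5 at 24 h and 5 or 10 at 48 h. DESeq2 called 184.

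Potri.009G070200.v3.0 was among the 40. In OE it stood at 3.23 and 3.86 CPM at 24 h and at 5.64 and 5.72 CPM at 48 h, a log2 fold change of 0.68 (SE 0.370) that was not called. The difference between the steps was -3.06 on the log2 scale (SE 0.576, adjusted p 0.0491 by the same edgeR test). That call was lost without any of the 8 libraries (adjusted p 0.0537 to 0.228). The other 3 named genes gave no call in this test (adjusted p 0.333 to 0.823 by edgeR).

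The smallest p of the difference in each direction, a choice made after the values were seen, belonged to Potri.015G089700.v3.0 (chromosome 15, 11212295 to 11216308) and Potri.016G125200.v3.0 (chromosome 16, 12828404 to 12830547). Potri.015G089700.v3.0 stood at 2.96 and 3.40 CPM in WT at 24 h and at 23.8 and 26.1 CPM at 48 h, and in OE at 12.9 and 18.6 CPM at 24 h and at 20.8 and 22.5 CPM at 48 h. The WT libraries at 24 h were the low ones among these 8. Its steps differed by -2.50 (log2, SE 0.285, adjusted p 0.00449 by edgeR). Potri.016G125200.v3.0 went from 7.39 and 8.00 to 5.02 and 5.002 CPM in WT and from 3.68 and 3.94 to 11.2 and 10.3 CPM in OE. The genotypes changed order between the times. The difference was 2.11 (SE 0.270, adjusted p 0.00651), while the change in WT alone had an adjusted p of 0.068. Both calls held without each of the 8 libraries.

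**Figure D4:**
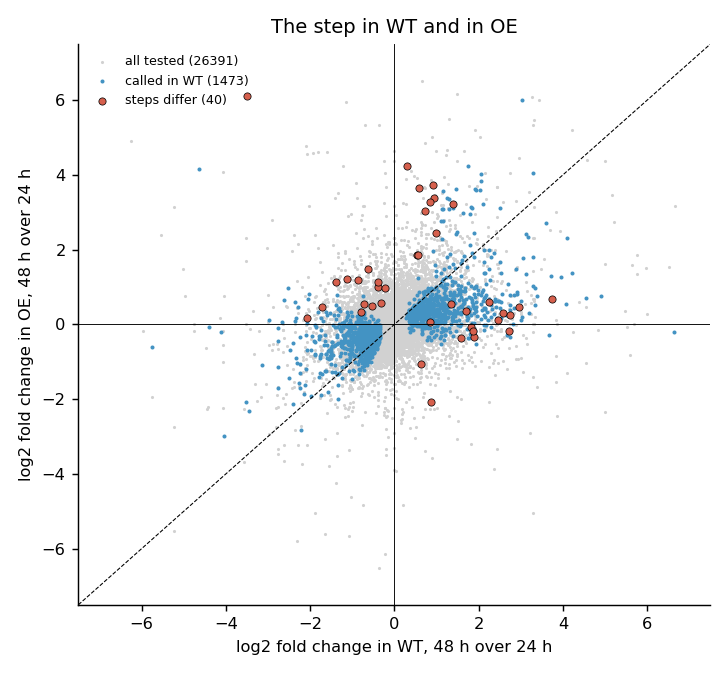
Log2 fold change from 24 to 48 h in WT (x axis) and in OE (y axis) for each tested gene, with the line of equal change dashed. Blue points are the 1473 genes called in WT, most of them in the quadrants of equal sign, and red points are the 40 genes whose steps differed between genotypes.

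The called genes lay on all 19 chromosomes, with shares from 4.70% on chromosome 18 to 6.86% on chromosome 16. Some were neighbours. Ordered along the chromosomes, 139 of the 1473 called genes (9.44%) stood next to a tested gene called in the same direction, in 64 runs of 2 or more. Over all genes tested, 2.75% were called higher and 2.83% lower, and a gene has a neighbour on either side. The share that would arise without grouping was not computed, so 9.44% is a description only. There were 5 runs of 3 or more, of which the longest held 6 genes each. Positions are printed as the authors' tables give them, without a named genome build. Neighbouring genes of similar sequence can share reads, so single values within a run are uncertain. The runs were found by the WT calls, so that their WT values are a description, while their OE values come from other libraries.

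The rising run of 6 tested genes spanned chr7:13567801-13604005 (36.2 kb, with 4 untested models among them). Its log2 fold changes in WT were 0.94 to 1.63. The summed level of the 6 genes was 47.9 and 53.4 CPM in the 24 h libraries and 93.0 and 148 CPM in the 48 h libraries. Over the course it rose from 20.9 and 19.1 CPM at 6 h to 166 and 147 CPM at 96 h. In OE the sum went from 21.0 and 27.4 CPM to 102 and 122 CPM, and 5 of the 6 genes were called higher there (log2 fold changes 2.42 to 3.39), against 2.43% of all genes. The sixth had 0.29 in OE (SE 0.212). One of the 6 was among the 40 genes whose steps differed. The 6 tested genes on each side of the run had medians of 0.09 and 0.07 in WT. When WT 24 h replicate 1 or WT 48 h replicate 2 was dropped, 0 of the 6 were called by edgeR, and 2 were when WT 24 h replicate 2 was.

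The falling run of 6 spanned chr11:13423452-13535412 (112 kb), with log2 fold changes of -2.47 to -0.83 in WT. Its summed level was 162 and 127 CPM in the 24 h libraries and 50.9 and 35.0 CPM in the 48 h libraries. It had been 22.9 and 34 CPM at 6 h and 114 and 71.1 CPM at 12 h. The highest value of any of the 6 genes, taken in each library by itself, was 10.9 and 18.8 CPM at 6 h. It was 137 and 101 CPM at 24 h and 41.2 and 28.2 CPM at 48 h. Which gene held it in each library was not recorded. From 12 h on it made up most of the sum, so the sum does not give the course of the lower genes. In OE the sum moved less, from 73.5 and 69.9 CPM at 24 h to 60.2 and 52.6 CPM at 48 h, with 1 of the 6 genes called lower, against 4.18% of all genes. None of the 6 was called in the test of the difference. The 6 calls in WT became 1 or 2 when replicate 1 or 2 of WT 24 h was dropped, and 3 or 1 when replicate 1 or 2 of WT 48 h was.

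The other 3 runs held 3 genes each. The one on chr5:22562767-22575473 rose by 1.83 to 2.07 (log2) in WT and by 3.11 to 4.03 in OE, where all 3 genes were called higher. Its summed level was 8.05 and 8.47 CPM at 24 h and 23.5 and 38.1 CPM at 48 h in WT. The run on chr18:11697912-11746620 rose by 1.82 to 2.07, from 2.14 and 3.73 to 8.11 and 15.1 CPM. Its 3 genes together held only 26 and 56 counts in the 24 h libraries. In OE their log2 fold changes were 0.59 to 1.02 and none was called, with 2.43% of all genes called higher there. The run on chr1:27752092-27798849 fell by between 0.99 and 1.53 on the log2 scale, from 231 and 181 to 108 and 95.2 CPM. The highest gene of each library, taken by itself, made up 209 and 165 and then 101 and 87.4 CPM of these sums. None of its genes was called in OE either, where the log2 fold changes were -0.85 to 0.12. The difference between genotypes was not called for any gene of these 3 runs. How their calls depend on single libraries was not examined.

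**Figure D5:**
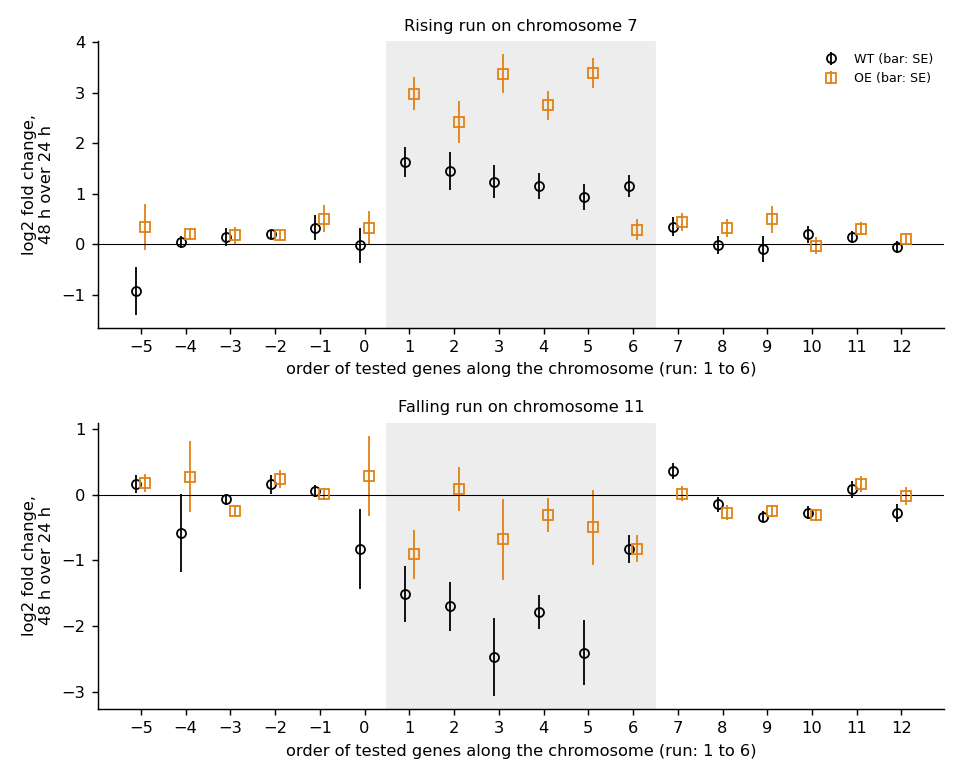
Log2 fold change from 24 to 48 h, with SE bars, of the 6 genes of each long run (grey band, positions 1 to 6) and of 6 tested genes on either side, in order along the chromosome. Circles are WT and squares OE; on chromosome 7 the first 5 genes lie at 2.42 to 3.39 in OE, above their WT values, and on chromosome 11 the WT values lie at -2.47 to -0.83.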

How the data were processed

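Per the file headers, every gene model carries 3 measures in each library: Count, FPKM and Normalized. The deposited counts were whole numbers, and the tests used them. The authors' FPKM values were described only, and the authors' normalized signal, whose scaling is not stated, was not used. The submitters' processing notes list TopHat2 2.1.1 and HTSeq 0.6.0, without role or order. For genome build, annotation release and strandedness, the value is not given in the sources used here, so overlapping or antisense models cannot be told apart.

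R 4.3.3 with edgeR 4.0.16 was used. After filterByExpr, TMM scaling and 1 group-means model over all 20 libraries left 10 residual degrees of freedom per gene. Tests were quasi-likelihood tests with Benjamini-Hochberg adjustment over 26391 genes, called at an adjusted p under 0.05. SE is the size of the log2 fold change divided by the square root of F. P-values measure the spread between these libraries. DESeq2 1.42.0 was an alternative. Named genes were the 2 largest log2 fold changes per direction among called genes with mean log2 CPM of at least 1 and groups that did not overlap, because no ID could be paired with a name; the planned gene lists were void for the same reason. The comparison, lists and rules were chosen with earlier results of these data known.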

Additional observations from a re-analysis of the deposited data

Results flagged for a closer look

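The step from 24 to 48 h differed between the genotypes by a test of the difference itself for 40 genes. Among the named genes, the difference (the OE change minus the WT change, log2) was -3.06 for Potri.009G070200.v3.0, -2.50 for Potri.015G089700.v3.0 and 2.11 for Potri.016G125200.v3.0. The call of Potri.009G070200.v3.0 was close to the bar (adjusted p 0.0491 by edgeR). By the same test it was lost with median-of-ratios size factors (0.0511), the length correction (0.0527) and thinning (0.0578). The other genes were named for the smallest p of this very test, so their differences are a description. No sample could be looked at as an outlier, because each group held 2 libraries.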

How the results depend on the processing

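No paired analysis was possible because the labels carry no replicate numbers: those used here were given in accession order, name the libraries and pair none. The length correction was chosen after seeing the data. The alternatives for gene lists were not run, since no list had members. Leaving out 1 library of the groups compared gave 244 to 710 calls for the WT step, 85 to 2079 for the OE step and 5 to 13 for their difference. With only the libraries of the groups compared there were 2883 and 246 calls for the WT and OE steps. With glmTreat and a log2 fold change of 1 as the bar there were 20 calls in WT, 58 in OE, 1352 at 96 h against 12 h, and 0 for the difference between the steps, where it gave 382 genes at an unadjusted p under 0.05 and DESeq2 called 184. Without a filter on low counts, 162 genes were called for that difference. Median-of-ratios size factors gave 1561 calls in WT (652 higher and 909 lower), and thinning to the smallest library total gave 1516 (626 and 890). The lean of long over short genes, 0.160 in WT and 0.139 in OE, was 0.00741 and -0.0156 with the length correction, by its construction.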
